A study of Mus musculus with 12 samples.

Results

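Levels of 8 genes of membrane trafficking were followed in cortical Sst-neurons and Thy1-neurons of mice with and without nicotine treatment. The genes were Syt12, Stxbp5l, Stxbp2, Ap2m1, Rab1b, Snx4, Vps8 and Pacs1, taken by name from a table of fragment counts, where they made up 8 of 35129 entries. Sst-neurons came from GIN mice of the FVB background, whose enhanced green fluorescent protein labels only a subgroup of somatostatin interneurons, and Thy1-neurons came from YFPH mice of the B6 background, in which the Thy1 promoter drives yellow fluorescent protein in layer V pyramidal cells. Cell type, transgene and strain background therefore change together, and they cannot be told apart in any comparison of the neurons. All mice were males of 5 to 7 weeks and 20 g, and each carried a subcutaneous osmotic mini pump for 14 days that gave either saline (groups Sst and Thy1) or 48 mg/kg/d of nicotine hydrogen tartrate (groups Sst+Nic and Thy1+Nic). Fluorescent cells were collected by hand, the cells of 1 mouse were pooled and their cDNA was amplified. The libraries analysed were Sst replicates 1, 2 and 3, Sst+Nic replicates 2 and 3, Thy1 replicates 2 and 3, and Thy1+Nic replicates 1, 2 and 3, while Sst+Nic replicate 1 and Thy1 replicate 1 were not analysed here.

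Membrane fusion in neurons is driven by SNARE proteins, among them the syntaxins, and is steered by proteins that bind them. Synaptotagmins sit on vesicles, and syntaxin-binding proteins either help SNARE assembly or hold it back. After fusion, membrane is taken up again by clathrin-mediated endocytosis, for which AP-2 is the cargo adaptor, and the cargo is then sorted at endosomes toward recycling, the trans-Golgi network or lysosomes. The same steps also bring receptors to and from the surface of the cell. Within this scheme, Syt12, Stxbp5l and Stxbp2 belong to vesicle fusion, Ap2m1 to endocytosis, Rab1b to transport from endoplasmic reticulum to Golgi, and Snx4, Vps8 and Pacs1 to endosome sorting.

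Between 2915738 and 4878326 fragments were counted per library, and the limit for an undetected gene (3 counts) came to 0.615 to 1.03 CPM, the count scaled to the total of counted fragments. All 8 genes had counts in all 10 libraries, from 29 for Stxbp2 in Sst+Nic replicate 3 to 26133 for Ap2m1 in Sst replicate 1. Mitochondrially encoded genes took 16.3% to 22.1% of the fragments in the Sst and Sst+Nic libraries and 31.4% to 38.5% in the Thy1 and Thy1+Nic libraries. Sst itself stood between 53779 and 126088 CPM in the 5 libraries of Sst-neurons. In those of Thy1-neurons it stood at 49.2 CPM or less, except in Thy1 replicate 3, which held 3795 CPM, so the library labelled Thy1 replicate 3 carried Sst transcripts. Values without it are given beside most of the log2 fold changes it enters, but not for the correlations. Many nuclear entries of the table hold partial counts: of 1398 nuclear genes compared with the study's own group values for Sst, 75.1% held under 5% of them, and shares of all entries called are therefore joined by the share among entries of the checked stretches in which the 8 genes lie. Shares at an unadjusted p under 0.05 and shares without overlap are given over all entries alone. They include entries with partial counts and are not a like background for the 8 genes. Of 6 markers of oligodendrocytes, endothelium, pericytes, smooth muscle and lymphoid cells, 0 to 4 had a count per library, and their summed level was 19.7 to 64.0 CPM in Sst, 21.3 and 174 CPM in Sst+Nic, 0 and 64.0 CPM in Thy1, and 14.1 to 29.1 CPM in Thy1+Nic. Of these markers Olig1 and Olig2, which reached 107 and 53.7 CPM, lie just outside the checked stretches, so that their counts may not be full. Their part in the results was not tested. Fewer cells of a type and less RNA per cell cannot be told apart in pooled libraries of this kind.

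Scaled for exon length, Ap2m1 was far above the other genes, with a mean of 1449 CPM per kb over the 10 libraries. Rab1b (121 CPM per kb) and Stxbp5l (100.4 CPM per kb) followed, and their libraries overlapped. Snx4 had 44.8 CPM per kb, while Pacs1 (21.6), Syt12 (18.5), Stxbp2 (12.5) and Vps8 (10.4 CPM per kb) formed a low group whose libraries overlapped one another. Ap2m1 alone made up between 68.1% and 86.7% of the fragments counted on the 8 genes. The least variable gene was Snx4, with a coefficient of variation of 22.8% over all libraries, and the most variable were Vps8 (61.1%) and Stxbp2 (56.4%).

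**Figure D1:**
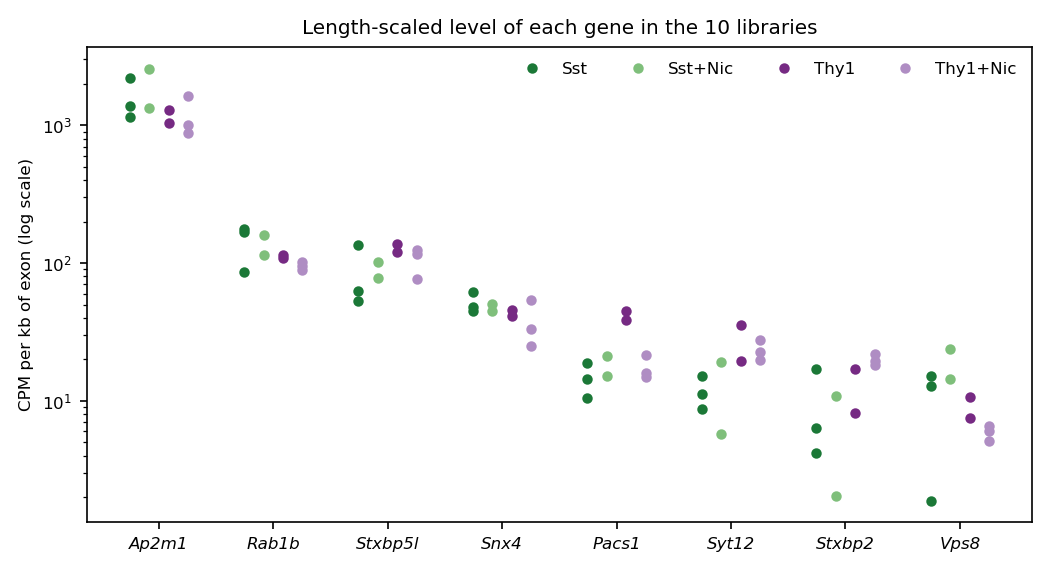
Level of each gene as CPM per kb of exon (logarithmic axis) in the 10 libraries, 1 point a library, colored by group and ordered by the mean. Ap2m1 lies above every other gene in all libraries, and Stxbp2 and Vps8 reach lowest, in Sst+Nic replicate 3 and Sst replicate 2.

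The start regions of the most abundant gene and of the gene with the smallest p-value between cell types without nicotine are shown. Ap2m1 lies on chromosome 16 (GRCm38, 20535478 to 20544909, plus strand) and Pacs1 on chromosome 19 (5133158 to 5273119, minus strand). The RefSeq windows on GRCm38.p6 run from 250 bases before to 50 bases after the start of transcription, at chr16:20535230-20535529 and chr19:5273070-5273369, and are written 5′ to 3′ on the strand of the gene with each GC box (GGGCGG on either strand) in capitals.
Ap2m1: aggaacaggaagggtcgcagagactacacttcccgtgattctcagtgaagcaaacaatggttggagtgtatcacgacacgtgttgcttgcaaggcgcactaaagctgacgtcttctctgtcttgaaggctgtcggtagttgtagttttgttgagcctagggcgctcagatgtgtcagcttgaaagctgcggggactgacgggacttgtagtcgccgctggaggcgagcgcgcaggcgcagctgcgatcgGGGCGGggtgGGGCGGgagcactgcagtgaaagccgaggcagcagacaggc
Pacs1: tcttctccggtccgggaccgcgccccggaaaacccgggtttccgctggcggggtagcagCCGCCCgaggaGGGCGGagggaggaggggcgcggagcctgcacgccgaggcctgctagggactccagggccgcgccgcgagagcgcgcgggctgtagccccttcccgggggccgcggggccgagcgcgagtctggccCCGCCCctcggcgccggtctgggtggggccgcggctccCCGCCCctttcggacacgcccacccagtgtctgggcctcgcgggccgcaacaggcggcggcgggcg
Pacs1 held 4 GC boxes and a GC content of 79.3%, and Ap2m1 held 2 and 58.3%. A GC box occurred in 35.7% of the 32851 windows of the table, at least 4 of them in 5.49%, and the median GC content was 52.7%. Of the 8 genes, 7 matched the table. Among the others the count of GC boxes was 5 in Stxbp5l, 4 in Snx4 with 2 of them sharing a base, 2 in Rab1b, 1 in Vps8 and 0 in Stxbp2. The half-site TGACG of the cAMP response element, searched on either strand, was found in Ap2m1, Stxbp2 and Vps8, and in 20.8% of all windows. These matches describe the letters alone.

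To see whether the genes differed between the cell types, Sst was first compared with Thy1 without nicotine treatment. DEGs had to show an adjusted p under 0.05 together with a log2 fold change beyond 1 in either direction, by the quasi-likelihood test of edgeR with Benjamini-Hochberg adjustment over all entries tested. Of the 8 genes, 0 were called, where 1.72% of the 6350 tested entries were, and 4.35% of the 552 in the checked stretches. At an unadjusted p under 0.05 there were 2 of the 8 (Syt12 and Pacs1), beside 16.3% of all entries, and DESeq2 called 1 gene and limma voom 0. The median log2 fold change was -0.36 over the 8 genes, 0.051 over all entries and -0.038 over those of the checked stretches, with 3 of the 8 above 0. With single libraries left out the median of the 8 genes ran from -0.60 (without Sst replicate 3) to -0.14 (without Sst replicate 2) and was -0.25 without Thy1 replicate 3, while that of all entries ran from -0.052 to 0.45.

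Pacs1, a sorting protein that binds acidic clusters of furin and other cargo and returns them to the trans-Golgi network, showed the widest separation. It stood at 70.4, 91.1 and 51.0 CPM in Sst replicates 1, 2 and 3, and at 189 and 218 CPM in Thy1 replicates 2 and 3. Both Thy1 libraries lay above all 3 Sst libraries. The group means were 70.8 ± 20.0 CPM (SD, n = 3) in Sst and 203 ± 20.3 CPM (SD, n = 2) in Thy1. On the log2 scale of the edgeR fit the difference was -1.67 with an SE of 0.39, and its adjusted p of 0.0949 missed the threshold. DESeq2 called it (adjusted p = 0.00297), as did the edgeR fits without a filter on low counts and with a filter that asks for 10 counts in 1 library or more. Without Thy1 replicate 3 the log2 fold change was -1.48 (adjusted p = 0.470 by edgeR), and over all alternatives the adjusted p ranged from 0.00297 to 0.47.

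Syt12, a member of the synaptotagmin family of vesicle proteins, was at 31.1, 54.3 and 39.9 CPM in Sst replicates 1, 2 and 3, and at 69.3 and 127 CPM in Thy1 replicates 2 and 3. The groups did not overlap, although Thy1 replicate 2 lay closer to the Sst libraries than to the other Thy1 library. Its log2 fold change was -1.39 (SE 0.51, edgeR adjusted p = 0.245), and without Thy1 replicate 3 it was -0.78 (edgeR adjusted p = 0.750), the upper end of alternatives from -1.87. Non-overlapping libraries were found for 2 of the 8 genes, both lower in Sst, whereas 35.3% of all tested entries did not overlap in one direction or the other.

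Stxbp5l encodes tomosyn-2, a syntaxin-binding protein that holds back SNARE assembly. Its levels in Sst replicates 1, 2 and 3 were 621, 291 and 245 CPM, and those in Thy1 replicates 2 and 3 were 555 and 629 CPM. A single Sst library, replicate 1, reached the Thy1 range in CPM (log2 fold change -0.83, SE 0.37, edgeR adjusted p = 0.322). Divided by the TMM factors with which edgeR adjusts the library totals, here over all 10 libraries, the levels were 529, 308 and 232 CPM in Sst against 546 and 717 CPM in Thy1, so that the groups did not overlap on that scale. With the mitochondrially encoded genes out of the totals, Sst replicate 1 (791 CPM) was likewise just below Thy1 replicate 2 (812 CPM). On either scale 3 of the 8 genes did not overlap, beside 35.2% of all entries with TMM factors and 34.5% without the mitochondrially encoded genes. The log2 fold change of Stxbp5l without Thy1 replicate 3 was -0.67 (edgeR adjusted p = 0.730), and over the alternatives it ran from -1.27 to -0.60. Stxbp2 encodes Munc18-2, a partner of syntaxins best known from granule release in blood cells. It was low and scattered, at 18.4, 12.2 and 49.7 CPM in Sst and 49.3 and 23.6 CPM in Thy1 (log2 fold change -0.60, SE 0.75, edgeR adjusted p = 0.825), and its log2 fold change ran from -1.41 without Sst replicate 3 to -0.14 without Thy1 replicate 2, with -0.98 without Thy1 replicate 3 (edgeR adjusted p = 0.753). For Sst replicate 2, which held 48 counts, the 95% Wilson interval for counting error was 9.23 to 16.2 CPM, well within the spread between libraries.

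The remaining 4 genes showed overlapping libraries. Ap2m1, the cargo-binding mu subunit of AP-2, had 4648 ± 1635 CPM in Sst (SD, n = 3) and 3427 ± 521 CPM in Thy1 (SD, n = 2), and the log2 fold change was 0.24 (SE 0.23). Rab1b, a GTPase of transport between endoplasmic reticulum and Golgi, had 287 ± 99.4 and 224 ± 6.18 CPM (log2 fold change 0.16, SE 0.31). Snx4, a sorting nexin of endosomal recycling, had 162 ± 27.1 and 138 ± 10.5 CPM (log2 fold change 0.066, SE 0.30). For Vps8, a subunit of the CORVET complex that tethers early endosomes, the values in Sst replicates 1, 2 and 3 were 74.8, 10.97 and 88.0 CPM, against 43.8 and 61.8 CPM in Thy1. Sst replicate 2, with 43 counts, was thus below every Thy1 library and the other two lay above them, and the estimate of -0.11 (SE 0.78) turned positive with total fragments as library sizes (0.13) and without Thy1 replicate 3 (0.24). For the other three the log2 fold change without that library was 0.16 (Ap2m1), 0.26 (Rab1b) and 0.23 (Snx4). The edgeR adjusted p of these 4 genes lay between 0.730 and 0.987.

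**Figure D2:**
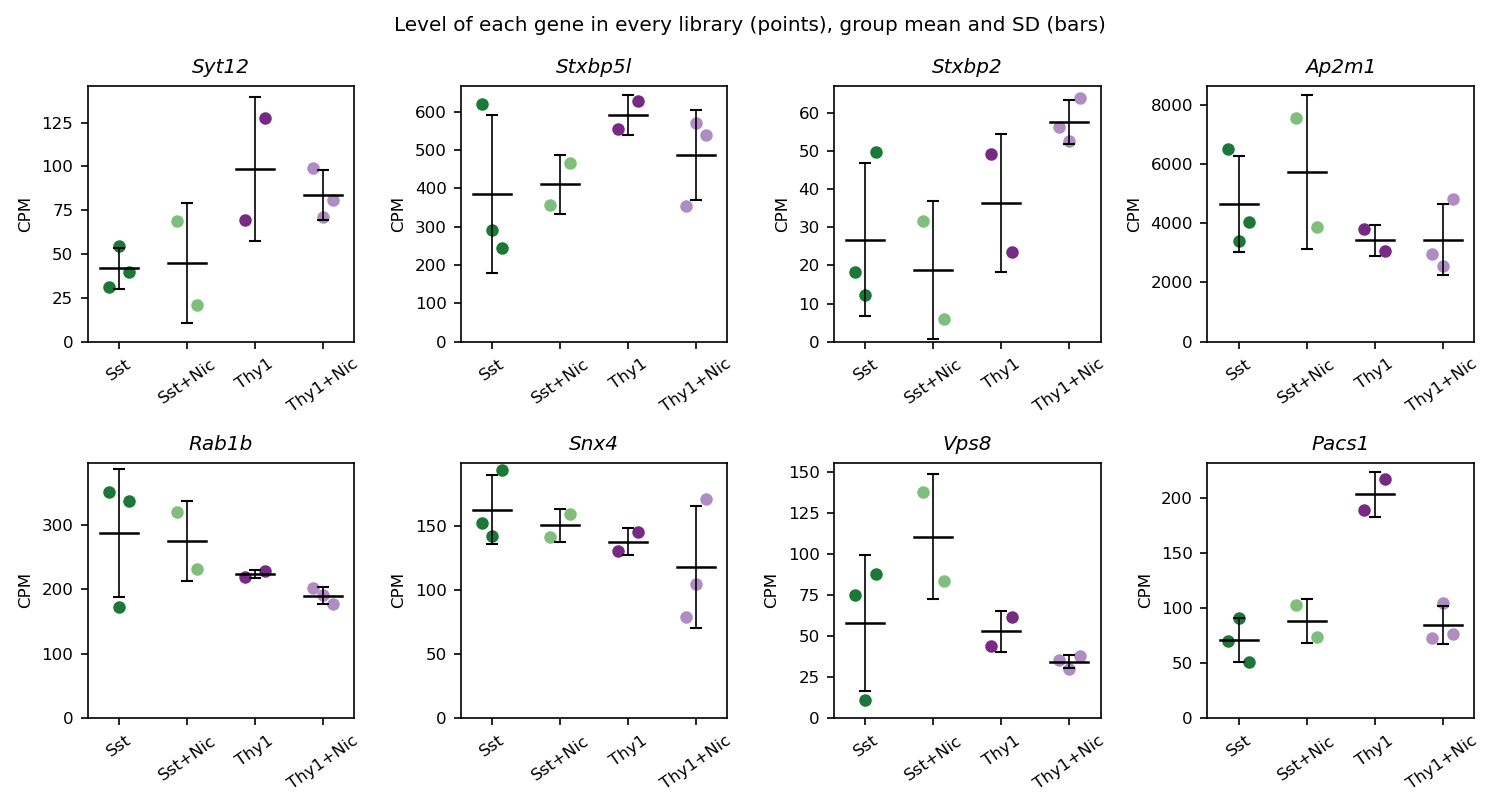
Level of each gene in CPM in every library (points) by group, with the group mean (horizontal bar) and SD (error bar); groups hold 3, 2, 2 and 3 libraries and each panel has its own axis from 0. Pacs1 stands apart in Thy1, with 189 and 218 CPM against at most 104 CPM in all other libraries.

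After nicotine, Sst+Nic was compared with Thy1+Nic, and again 0 of the 8 genes were called, where 0.507% of 6509 tested entries were, and 1.77% of the 566 in the checked stretches. At an unadjusted p under 0.05 there were 3 (Syt12, Stxbp2 and Vps8), beside 15.7% of all entries, and DESeq2 called 1 gene and limma voom 0. Groups did not overlap in CPM for 4 of the 8 genes, 2 in each direction, beside 39% of all tested entries. With TMM factors these were 5 of the 8, of which 4 were lower in Sst+Nic (Syt12, Stxbp5l, Stxbp2 and Pacs1) and 1 higher (Vps8), beside 34.6% of all entries. With the mitochondrially encoded genes out of the totals they were 3 (Syt12, Stxbp2 and Vps8), beside 35.6%. The median log2 fold change was -0.29 over the 8 genes, 0.086 over all entries and -0.15 over those of the checked stretches. With single libraries left out that of the 8 genes ran from -0.43 to -0.16, the latter without Thy1+Nic replicate 2.

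Stxbp2 had the widest difference here. It was at 31.6 and 5.94 CPM in Sst+Nic replicates 2 and 3, and at 56.4, 52.7 and 63.9 CPM in Thy1+Nic replicates 1, 2 and 3. All Thy1+Nic libraries were close together and above both Sst+Nic libraries, which differed widely from each other. The log2 fold change was -2.21 (SE 0.71, edgeR adjusted p = 0.223), and DESeq2 called it with an adjusted p of 0.0373, the lowest of alternatives that ranged from 0.0373 to 0.535. The estimate itself ran from -3.65 to -1.52 over these alternatives. Syt12 was at 68.9 and 20.7 CPM in Sst+Nic and at 99.1, 71.1 and 81.0 CPM in Thy1+Nic (log2 fold change -1.47, SE 0.55, edgeR adjusted p = 0.255). Sst+Nic replicate 2 was thus just below the lowest Thy1+Nic library, and the estimate ran from -2.40 to -0.91 over the alternatives.

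In the other direction, Vps8 was at 138 and 83.4 CPM in Sst+Nic and at 35.1, 30.0 and 38.0 CPM in Thy1+Nic. The libraries of both groups were clearly separated, and the log2 fold change of 1.16 (SE 0.42) had an edgeR adjusted p of 0.246 and ran from 0.90 to 1.68 over the alternatives. Pacs1 was at 103 and 74.0 CPM in Sst+Nic and at 72.9, 104 and 76.9 CPM in Thy1+Nic, so that the groups overlapped in CPM (log2 fold change -0.48, SE 0.41, edgeR adjusted p = 0.727). Divided by TMM factors the levels were 76.0 and 66.5 CPM against 87.1, 131 and 79.9 CPM, which did not overlap. Rab1b was higher in both Sst+Nic libraries (320 and 231 CPM) than in any Thy1+Nic library (203, 191 and 177 CPM), but its log2 fold change was 0.0062 (SE 0.31), as edgeR scaled the totals of the Sst+Nic libraries by TMM factors of 1.35 and 1.13 and those of the Thy1+Nic libraries by 0.794 to 0.977. Stxbp5l, Ap2m1 and Snx4 overlapped between the groups in CPM, with log2 fold changes of -0.73 (SE 0.36), 0.22 (SE 0.32) and -0.11 (SE 0.40). That of Stxbp5l ran from -1.11 without Sst+Nic replicate 3 to -0.25 with total fragments as library sizes.

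Taking the totals as library sizes without TMM moved the median log2 fold change of all entries from 0.051 to 0.22 without nicotine and from 0.086 to 0.59 after nicotine, so that differences near 0 have no settled direction. With that scaling, Syt12 was at -1.23 and Pacs1 at -1.52 without nicotine, while Pacs1 after nicotine moved from -0.48 to 0.059.

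**Figure D3:**
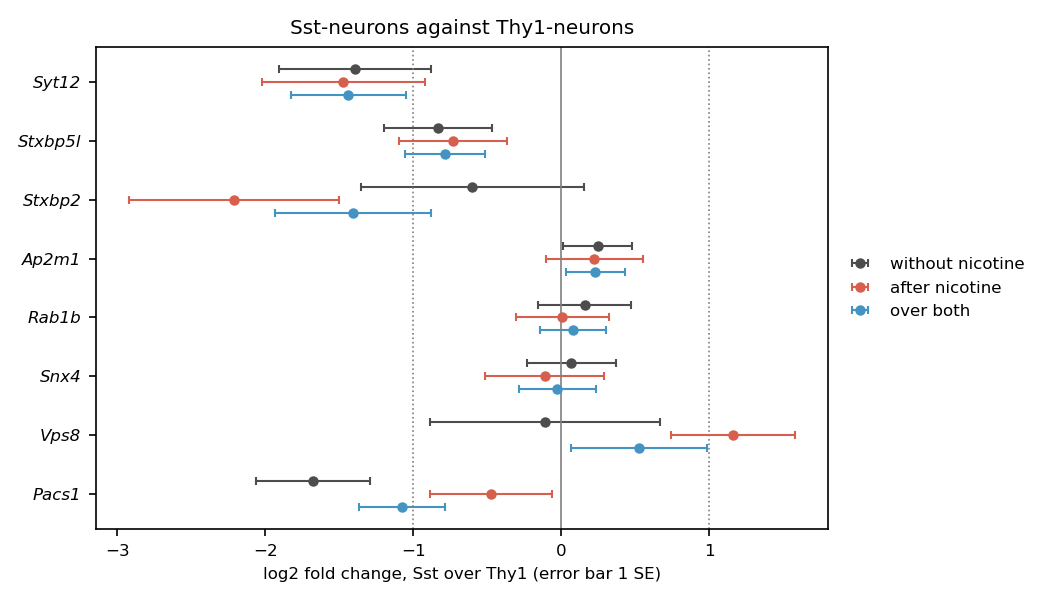
Log2 fold change of Sst over Thy1 for each gene without nicotine, after nicotine and averaged over both treatments, with error bars of 1 SE; dotted lines mark absolute log2 fold changes of 1. Syt12 is near -1.4 in all 3 comparisons, whereas Pacs1 lies at -1.67 without and -0.48 after nicotine.

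Since both treatments hold the same contrast of cell types, their average was also fitted over all 10 libraries, a comparison added after the values had been seen. Of 8242 entries tested, 4.95% were called, as were 11.1% of the 602 in the checked stretches, and 0 of the 8 genes by edgeR, beside 2 by DESeq2 and 2 by limma voom. Pacs1 (log2 fold change -1.08, SE 0.29) and Syt12 (-1.44, SE 0.39) both lay next to the threshold, with edgeR adjusted p of 0.0516 and 0.0533. An unadjusted p under 0.05 was reached by 4 of the 8 genes and 21.6% of all entries. Stxbp5l and Stxbp2 were the other two, with log2 fold changes of -0.78 (SE 0.27) and -1.41 (SE 0.53) and edgeR adjusted p of 0.124 and 0.154. Their log2 fold changes without Thy1 replicate 3 were -0.69 and -1.60, and over the alternatives they ran from -0.99 to -0.43 and from -2.11 to -1.04. Only Syt12 of the 8 genes, beside 8.46% of all entries, did not overlap in CPM, with 20.7 to 68.9 CPM in the 5 libraries of Sst-neurons (median 39.9) and 69.3 to 127 CPM in the 5 of Thy1-neurons (median 81.0). It was also the single one with TMM factors (8.17% of all entries) and without the mitochondrially encoded genes (8.14%). Leaving out Sst replicate 2 brought both Pacs1 (adjusted p = 0.0284) and Syt12 (0.0455) past the threshold in edgeR, and Syt12 alone passed without Sst+Nic replicate 2 (0.0266) or Thy1 replicate 2 (0.0215). Without Thy1 replicate 3 the log2 fold change was -0.98 for Pacs1 and -1.13 for Syt12, with edgeR adjusted p of 0.213 and 0.225. Over all alternatives it ranged from 0.00695 to 0.213 for Pacs1 and from 0.00774 to 0.225 for Syt12.

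To determine whether nicotine changed these genes, Sst+Nic was compared with Sst and Thy1+Nic with Thy1. In Sst-neurons 0 of the 8 genes were called and 0% of 6689 tested entries, with 0 of the 8 at an unadjusted p under 0.05 beside 4.19% of all entries. DESeq2 and limma voom also called 0 of the 8. The libraries of the 2 groups overlapped for all 8 genes, whereas 20.8% of all entries did not overlap. This was also so with TMM factors and without the mitochondrially encoded genes, beside 20.6% of all entries on either scale. The log2 fold changes ran from -0.81 (SE 0.98) for Stxbp2 to 0.75 (SE 0.73) for Vps8, and the edgeR adjusted p was 1.00 for each. Over the alternatives Vps8 ran from 0.27, without Sst replicate 2, to 1.44, and Stxbp2 from -2.27 to 0.026.

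In Thy1-neurons 0 of the 8 genes were called and 0% of 6048 tested entries. At an unadjusted p under 0.05 there was 1 gene, Pacs1, beside 4.37% of all entries, and DESeq2 and limma voom called 0 of the 8. Pacs1 had 189 and 218 CPM in the Thy1 libraries, against 72.9 to 104 CPM in Thy1+Nic (log2 fold change -1.15, SE 0.36, unadjusted p = 0.0124, edgeR adjusted p = 1.00). All 3 Thy1+Nic libraries were below both Thy1 libraries, and the Thy1 libraries also stood above all 5 libraries of Sst-neurons. Without Thy1 replicate 3 the log2 fold change was -0.92 (unadjusted p = 0.121). Stxbp2 was above its Thy1 values in all Thy1+Nic libraries, with means of 57.7 ± 5.72 CPM (SD, n = 3) against 36.4 ± 18.1 CPM in Thy1 (SD, n = 2; log2 fold change 0.79, SE 0.47). Vps8 (log2 fold change -0.53, SE 0.46) and Rab1b (-0.12, SE 0.30) were below in all of them. Without Thy1 replicate 3 the log2 fold changes were 0.44 for Stxbp2, -0.14 for Vps8 and 0.026 for Rab1b, and over all alternatives they ran from 0.44 to 1.31, from -0.83 to -0.14 and from -0.23 to 0.026. Groups did not overlap for these 4 of the 8 genes, beside 20.9% of all entries (3 with TMM factors, where Rab1b overlapped, beside 20.8%), and none passed the test (edgeR adjusted p = 1.00). The other 4 genes overlapped, with log2 fold changes from -0.18 to 0.092, or from 0.040 to 0.49 when Thy1 replicate 3 was left out.

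**Figure D4:**
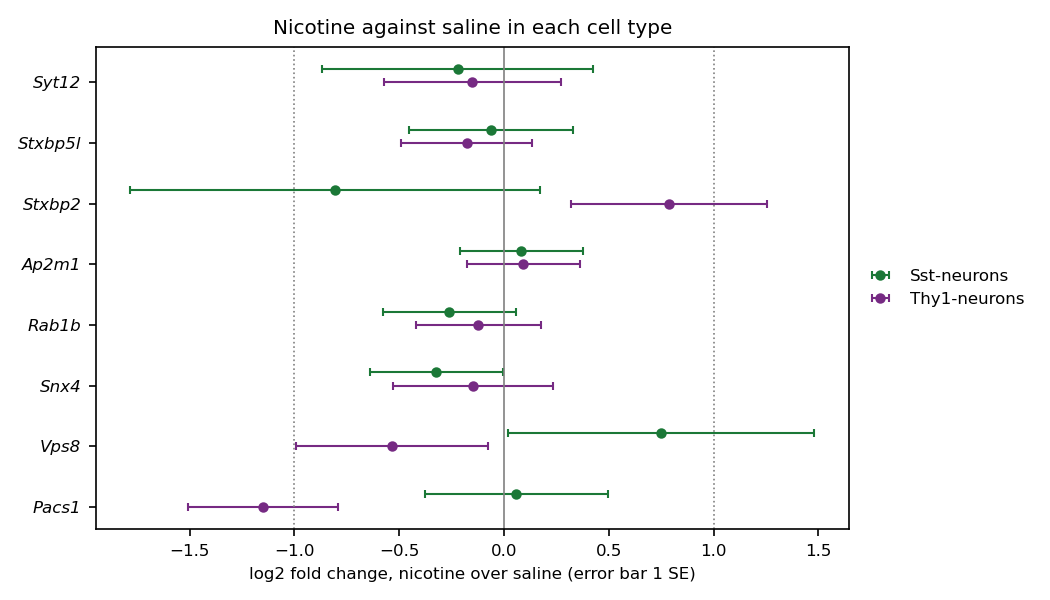
Log2 fold change of nicotine over saline for each gene in Sst-neurons and in Thy1-neurons, with error bars of 1 SE and dotted lines at absolute log2 fold changes of 1. Pacs1 in Thy1-neurons, at -1.15, is the single estimate beyond a dotted line, and 0 of the 8 genes were called.

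Whether nicotine acted differently in the cell types was tested as an interaction in a fit of all 10 libraries, in which 0 of the 8 genes and 0% of 8242 entries were called. At an unadjusted p under 0.05 there were 0 of the 8 genes and 7.33% of all entries, and DESeq2 and limma voom called 0 of the 8. The difference of the nicotine effects (Sst minus Thy1, log2) was 1.19 for Pacs1 (SE 0.57, edgeR adjusted p = 0.676), -1.62 for Stxbp2 (SE 1.06, edgeR adjusted p = 0.773) and 1.25 for Vps8 (SE 0.91, edgeR adjusted p = 0.816). These were 0.99, -1.25 and 0.89 without Thy1 replicate 3. Over the alternatives they ran from 0.99 to 1.58 for Pacs1, from -3.05 (without Sst+Nic replicate 2) to -0.82 (without Sst replicate 3) for Stxbp2 and from 0.83 (without Sst replicate 2) to 1.74 for Vps8.

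For comparison, 39 other genes of membrane trafficking in the checked stretches of the table were tested in the same fits, in 4 lists of fusion and tethering (8 genes), endocytosis and recycling (13), endosome sorting (10), and endoplasmic reticulum and Golgi (8). Without nicotine 35 of them passed the filter and 2 were called, both lower in Sst, against 4.35% of the entries in those stretches. After nicotine 36 passed and 1 was called, lower in Sst+Nic, against 1.77%. In the average over both treatments 37 passed and 3 were called, all lower in Sst-neurons, against 11.1%. Rin1 was among those called each time, although it had only 1 to 15 counts in each library of Sst-neurons. It passed the filter through the Thy1-neurons, so these tallies are given as a description. In both nicotine comparisons and in the interaction 0 were called. The median log2 fold change of the tested genes was -0.11 without nicotine, -0.17 after nicotine and -0.14 over both. With single libraries left out it ran from -0.32 to 0.28 without nicotine, from -0.21 to -0.0071 after nicotine and from -0.22 to 0.064 over both, the highest of the first and last being without Thy1 replicate 3. It has no settled direction without nicotine or over both, where it was also above 0 without Sst replicate 3 (0.071) and without Sst replicate 1 (0.0027), respectively.

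Rin1, an exchange factor that activates the endocytic GTPase Rab5, was called in all 3 comparisons of the cell types. It had 0.27 to 1.02 CPM in Sst and 1.03 and 3.07 CPM in Sst+Nic, but 152 and 60.4 CPM in Thy1 and 72.5 to 116 CPM in Thy1+Nic. Its counts were 4, 4 and 1 in Sst and 3 and 15 in Sst+Nic, at or near the limit of 3, so that it passed the filter through the Thy1-neurons and the size of its fitted fold depends on the prior count. Over pooled counts, its level in Thy1 was 136 times that in Sst without nicotine (exact 95% interval for counting error 71.3 to 299) and in Thy1+Nic 39.1 times that in Sst+Nic (24.6 to 66.3). The lowest Thy1 library was 59.2 times the highest Sst library, and the lowest Thy1+Nic library 23.6 times the highest Sst+Nic library. The pooled ratio without nicotine was 78.2 when Thy1 replicate 2 was left out and 196 when Thy1 replicate 3 was. After nicotine it ran from 29.4 without Sst+Nic replicate 2 to 87.8 without Sst+Nic replicate 3. The edgeR adjusted p was 0.00892 without nicotine, or 0.0203 without Thy1 replicate 3. After nicotine it was 0.0326, and leaving out Sst+Nic replicate 2 or any of the Thy1+Nic libraries left 0 of the 39 genes called. Septin5, a septin that binds syntaxin, was at 172 to 242 CPM in Sst and 566 and 598 CPM in Thy1 (log2 fold change -1.64, SE 0.23, edgeR adjusted p = 0.0226). It was not called when any single library was left out (edgeR adjusted p = 0.0583 to 0.182), and the log2 fold change without Thy1 replicate 3 was -1.52. After nicotine its log2 fold change was -1.31 (SE 0.38, edgeR adjusted p = 0.194), and over both treatments it was called (edgeR adjusted p = 0.00259), also without Thy1 replicate 3 (0.00248). Without nicotine, leaving out any single library thus left Rin1 alone of the 39 genes called, or none of them in the case of Thy1 replicate 2, where the edgeR adjusted p of Rin1 was 0.0640. Acap2, a GTPase-activating protein for Arf6 in recycling, was called over both treatments alone (log2 fold change -1.28, SE 0.25, edgeR adjusted p = 0.00917). It stayed past the threshold without Thy1 replicate 3 (log2 fold change -1.28, edgeR adjusted p = 0.0327) and missed it without Sst+Nic replicate 2 (0.0786). Next to Rin1, the estimate farthest from 0 was that of the sorting nexin Snx29 among the genes tested without nicotine (-2.73, SE 2.24) and that of the late endosomal protein Litaf among those tested after nicotine (1.64, SE 1.40), both from low or scattered counts and not called. With single libraries left out, Snx29 ran from -7.45 (without Sst replicate 2) to -2.17, and Litaf from 1.07 to 4.48 (without Thy1+Nic replicate 1), and neither was called.

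**Figure D5:**
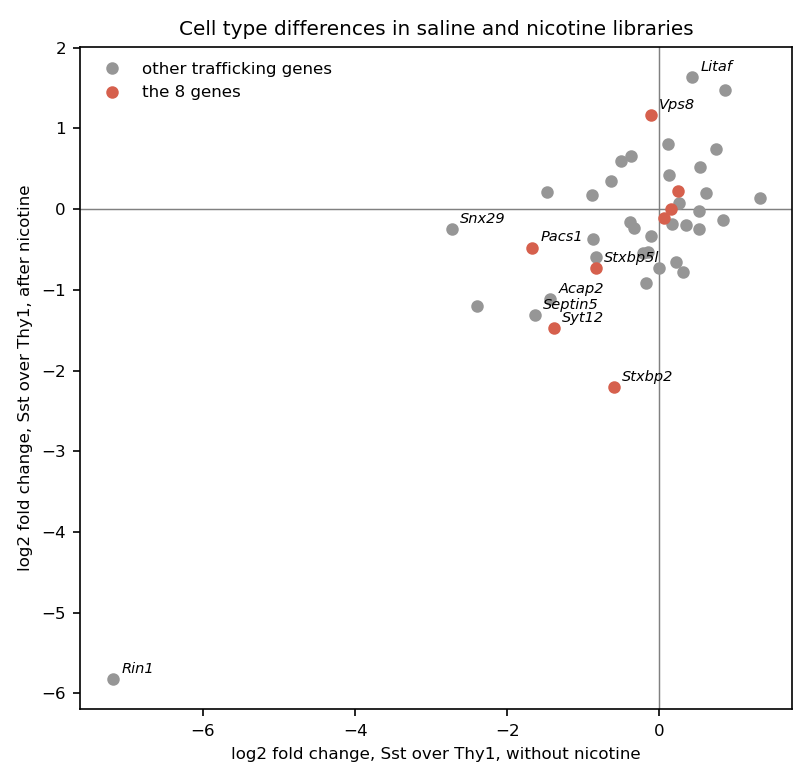
Log2 fold change of Sst over Thy1 without nicotine (horizontal axis) and after nicotine (vertical axis) for the 8 genes and the 35 of the other 39 trafficking genes tested in both; the 2 axes use different libraries. Rin1 lies far from the rest at fitted values of -7.19 and -5.82, which rest on 1 to 15 counts in each library of Sst-neurons, and Syt12 lies beside Septin5 and Acap2.

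Over the 10 libraries, the checked entry most like each gene was sought by Pearson's r of log2(TMM CPM + 1) among 460 entries of at least 10 CPM on average. The libraries share depth, amplification and cell type, and r is given as a description. Each r is the highest of 460 over only 10 libraries, so that a high value can arise from this selection alone. The closest entries were Gal3st3 for Stxbp2 (r = 0.953), Spnb3 for Syt12 (r = 0.937), Etv5 for Stxbp5l (r = 0.916), Psmd2 for Ap2m1 (r = 0.877), Aifm3 for Pacs1 (r = 0.871), Ccdc80 for Rab1b (r = 0.835), Iqcg for Vps8 (r = 0.789) and Rela for Snx4 (r = 0.732). Among the 8 genes themselves the highest values were between Syt12 and Stxbp2 (r = 0.6997) and between Syt12 and Pacs1 (r = 0.697), and the lowest was between Ap2m1 and Pacs1 (r = -0.446).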

How the data were processed

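Paired-end HiSeq reads were quality-filtered and aligned by the authors with TopHat (genome version mmu10.p2, GRCm38), who deposited raw fragment counts per gene entry. HTSeq is named in the submitters' processing notes; its settings and the gene annotation are not given in the sources used here. Of 12 samples, 10 libraries were used, and 0 columns of other samples were left aside. Entries were checked against the study's own group values for Sst and Thy1+Nic, scaled on mitochondrially encoded genes. The libraries of Sst+Nic and Thy1 were not checked in this way. Stretches from the starts of chromosomes 7, 8, 16 and 19 (to 3.3, 15.0, 87.9 and 6.4 Mb) in which all compared genes held 30% to 300% of those values were taken as checked, and hold 1021 entries, all 8 genes included. Counts there were not all full: 32 of 65 compared genes matched within 1% (15 of 42 on chromosome 16), and genes next to members held as little as 45.3% (Zbtb20, beside Stxbp5l), 81.2% (Clcn2, beside Vps8), 86.9% (Ctxn1, beside Stxbp2) and 90.5% (Rpl35a, beside Snx4). Of the members only Pacs1 could be compared itself, and it matched within 1%, a check that does not cover its values in Thy1 or Sst+Nic. CPM divides by all counted fragments of a library, which are 20.0% to 27.3% of its uniquely mapped read pairs, so CPM is relative to this partial table.

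Counts were tested with edgeR 4.0.16 in R 4.3.3 (quasi-likelihood, TMM, filterByExpr with minimum count 10), using the libraries of the groups compared, and Benjamini-Hochberg adjustment over all tested entries. The SE of an edgeR estimate was calculated as its absolute log2 fold change divided by the square root of the test's F statistic. The study's own test, EBSeq, was not available. Positions and exon lengths came from GENCODE on GRCm38. Alternatives were DESeq2 1.42.0, limma 3.58.1 (voom with sample quality weights), other scalings and filters, a replicate block and each library left out in turn. Library sizes from uniquely mapped reads, the average over treatments, the shares called in the checked stretches and the overlap of groups on the TMM scale and without mitochondrially encoded genes were added after the values had been seen. Named were all 8 genes, the listed trafficking genes called in any comparison, the 2 largest log2 fold changes in each of the comparisons without and after nicotine and the entry most like each gene. The genes and lists were chosen with earlier results of these data known. On simulated counts with large known changes the fits of 2 groups called a minority of the changed genes and the interaction hardly any. The average over both treatments called most of them. The simulated counts varied less between libraries than the fits estimated for these data, so the share that would be called here is not known. In none of the fits do 0 calls show that a gene did not change. Replicates of a group were different mice, and replicate pairs differed by more than counting noise (chi-square per degree of freedom 30.4 to 78.0). The 95% Wilson intervals and limits of 3 counts cover counting error only. From the authors' comparisons only the group values of Sst and Thy1+Nic were used, to check entries, so that only genes listed there could be compared. Their fold changes and test results were not used.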

Additional observations from a re-analysis of the deposited data

How the results depend on the processing

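Of 48 log2 fold changes (8 genes in 6 comparisons), 23 kept their direction under all alternatives, among them those of Syt12, Stxbp5l and Stxbp2 in the 3 comparisons of cell types, and 25 changed sign at least once, most of them near 0. Of the 8 genes, 1 was called without nicotine by DESeq2, without a filter and with the filter of 10 counts in 1 library or more, and 1 after nicotine by DESeq2; over both treatments 2 were called by DESeq2, by limma voom and with the filter of 10 counts, 1 with no filter, and 0 to 2 when single libraries were left out. Of the other trafficking genes, without nicotine, 1 was called with limma voom, total fragments as library sizes, the replicate block and uniquely mapped reads as library sizes, 4 with no filter, and 0 to 1 without single libraries; after nicotine, 3 were called by DESeq2, 0 by limma voom and the replicate block, and 0 to 1 without single libraries. Over all entries, the number called rose from 109 to 551 with DESeq2 without nicotine, from 33 to 496 after nicotine and from 408 to 861 over both; with no filter it was 454, 356 and 727, with at least 10 counts 266, 275 and 766, and with limma voom 109, 65 and 689. With all libraries in 1 fit, 105 were called after nicotine. Leaving out single libraries gave 33 to 55 without nicotine and 0 to 56 after it. For nicotine, DESeq2 called 16 entries in Sst-neurons and 14 in Thy1-neurons, no filter 8 and 13, and at least 10 counts 0 and 7; for the interaction these gave 7, 36 and 27.

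Replicate numbers of different groups belong to different mice, and deviations of same-numbered libraries correlated between -0.085 and 0.033, so the numbers do not pair the libraries. With the replicate block 0 of the 8 genes were called in any comparison, and over all entries 59 were called without nicotine (against 109), 9 after nicotine (against 33) and 377 over both (against 408); it changed no other call than those of the other trafficking genes above. The block also turned the log2 fold change of Stxbp5l under nicotine in Sst-neurons to 0.29, of Snx4 in Thy1-neurons to 0.046 and of Ap2m1 in the interaction to 0.083.

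Total fragments as library sizes turned the sign of Vps8 without nicotine (0.13), of Snx4 (0.35) and Pacs1 (0.059) after nicotine, of Snx4 over both (0.30), of Stxbp5l (0.091) and Syt12 (0.098) under nicotine in Sst-neurons, and of Ap2m1 (0.29), Syt12 (0.33), Rab1b (0.17) and Snx4 (0.11) in the interaction. Uniquely mapped reads turned Vps8 without nicotine (0.15), Snx4 after nicotine (0.10) and over both (0.21), and Stxbp5l in Sst-neurons (0.0040). The fit on checked entries alone turned Vps8 without nicotine (0.015), Snx4 after nicotine (0.040) and over both (0.11), and Ap2m1 (0.070) and Syt12 (0.044) in the interaction. With limma voom, Rab1b after nicotine was -0.0015, Snx4 over both 0.0069 and Stxbp5l in Sst-neurons 0.010. Rab1b after nicotine was -0.0018 with no filter, -0.0093 with at least 10 counts and -0.0019 with all libraries in 1 fit. Ap2m1 in the interaction was 0.052 with DESeq2 and with RLE size factors. The cause was not tested.

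With single libraries left out, log2 fold changes ran from -0.59 to 0.32 (Vps8), -0.0038 to 0.33 (Ap2m1), -0.011 to 0.32 (Rab1b) and -0.14 to 0.23 (Snx4) without nicotine, from -0.11 to 0.086 (Rab1b), -0.37 to 0.15 (Snx4) and -0.18 to 0.51 (Ap2m1) after nicotine, and from -0.16 to 0.079 (Snx4) and -0.0088 to 0.16 (Rab1b) over both. Under nicotine in Sst-neurons they ran from -0.44 to 0.33 (Stxbp5l), -1.17 to 0.31 (Syt12), -2.27 to 0.026 (Stxbp2), -0.34 to 0.37 (Ap2m1) and -0.13 to 0.40 (Pacs1), and in Thy1-neurons from -0.42 to 0.054 (Snx4), -0.58 to 0.49 (Syt12), -0.37 to 0.040 (Stxbp5l), -0.14 to 0.23 (Ap2m1) and -0.23 to 0.026 (Rab1b). In the interaction they ran from -0.42 to 0.30 (Ap2m1), -0.99 to 0.50 (Syt12), -0.40 to 0.072 (Snx4) and -0.24 to 0.49 (Stxbp5l). A fit that leaves 1 library in a group assumes that it varies like the others. Leaving the mitochondrially encoded genes out of the total moved 18 of the 32 group means of CPM by more than 1 SD, upward in each. For the lowest count of the 8 genes, 29 for Stxbp2 in Sst+Nic replicate 3 (5.94 CPM), the 95% Wilson interval was 4.14 to 8.54 CPM, against 31.6 CPM in the other Sst+Nic library.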

Other observations

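One further gene of the trafficking lists was picked out after its values were seen. Ehd1, an ATPase of endosomal recycling, was at 10.4, 9.18 and 5.13 CPM in Sst and at 43.9 and 44.7 CPM in Sst+Nic, and at 8.31 and 5.22 CPM in Thy1 and 21.6, 19.6 and 29.8 CPM in Thy1+Nic. In both cell types all nicotine libraries were above all saline libraries, where 20.8% of all tested entries in Sst-neurons and 20.9% in Thy1-neurons did not overlap in one direction or the other. The log2 fold change of nicotine over saline was 2.21 (SE 0.72, unadjusted p = 0.0176) in Sst-neurons and 1.91 (SE 0.74, unadjusted p = 0.0328) in Thy1-neurons, and the edgeR adjusted p was 1.00 in both, so that Ehd1 was not called. With 1 Sst+Nic library left out the unadjusted p in Sst-neurons was 0.0713 (without replicate 2) and 0.126 (without replicate 3), and with any 1 library left out in Thy1-neurons it was 0.0540 to 0.152. Without Thy1 replicate 3 the log2 fold change in Thy1-neurons was 1.70 (SE 1.13, unadjusted p = 0.152, edgeR adjusted p = 0.914). Its counts were between 19 and 218 per library, and the cause was not tested.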
